A study of Mus musculus with 12 samples.

Results

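The nuclear-encoded subunits of the mitochondrial respiratory chain and of ATP synthase were followed across 12 mouse spleen arrays. They were chosen by gene symbol: every probe set with 1 annotated symbol that began with Nduf (Ndufaf assembly factors left out), Uqcr, Cox4 to Cox8 or Atp5, or that was Sdha, Sdhb, Sdhc, Sdhd or Cyc1. Where a gene had several such probe sets, the one with the highest mean over the 12 arrays was kept. This gave 83 of the 19938 genes with 1 symbol: 36 of complex I, 4 of complex II, 9 of complex III, 17 of complex IV and 17 of complex V (ATP synthase). The rule used no difference between groups, though it was set with earlier results of these data known. Cox7a2l, which helps complexes III and IV to associate, carries such a symbol without being a classical subunit. Cox7c and Ndufb4, whose probe sets carried a second symbol, were not analysed here, nor were the subunits encoded in mitochondrial DNA.

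The respiratory chain sits in the inner mitochondrial membrane. Complex I takes electrons from NADH and complex II takes them from succinate, complex III passes them to cytochrome c, complex IV hands them to oxygen, and ATP synthase uses the proton gradient that results to make ATP. Core subunits hold the redox centres or catalytic sites (the core list here also takes in the large nuclear subunits of complexes III and IV that stand beside them), accessory subunits surround them, and some complex IV subunits exist as isoforms made mainly in heart, skeletal muscle, lung or testis. In the spleen, lymphocytes, phagocytes and red cell precursors all use the chain, to different degrees by cell type and state.

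Spleens of C57BL/6 mice were compared under 3 labels of 4 arrays each. Septic TLR-deficient spleens (title numbers M5 to M8, replicates 1 to 4) came from mice labelled as lacking Toll-like receptor function, with Trif and myd in the titles, after colon ascendens stent peritonitis (CASP), in which a stent in the ascending colon lets gut bacteria into the abdominal cavity. Septic wildtype spleens (M9 to M12, replicates 1 to 4) had the same operation, and untreated wildtype spleens (M13 to M16, replicates 1 to 4) had none. No group of untreated TLR-deficient mice was included, so the deficiency alone and the operation in deficient mice cannot be told apart in a comparison with untreated wildtype. The alleles, age, sex and time after the operation were not given in the sources used here, and the extraction protocol opens with a sentence about Shh mutants that does not describe these mice. The titles call the replicates biological. These were whole spleens, so fewer cells of a type and less RNA per cell cannot be told apart. Values are log2 array signals, and because probe sets respond differently, a value is set only against the same gene on other arrays.

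Array M10, septic wildtype replicate 2, stood apart from the rest. Over all genes its correlation with the other arrays was 0.765 to 0.809, against 0.956 to 0.991 among the other 11, and the SD of its values over genes was 1.21, against 1.91 to 2.07. Results that rest on it are given with and without it. The arrays were also not most alike within labels: the closest array by correlation carried the same label for 5 of 12 and came from the same run of title numbers for 12 of 12, when the runs are M5 to M7 with M16, M8 to M11, and M12 to M15. Xist, which is transcribed in female cells, lay at 9.71 to 10.47, 8.94 to 10.94 and 3.73 to 4.33 in these 3 runs. Eif2s3y, a gene of the Y chromosome, lay at 2.55 to 2.68, 2.48 to 4.50 (M10 at 4.50) and 7.21 to 7.95. By label, Xist ran from 9.71 to 10.84 on septic TLR-deficient, 4.33 to 10.94 on septic wildtype and 3.73 to 9.91 on untreated arrays. The labelled groups are therefore not balanced for sex, and its part in the subunits' differences was not tested. The runs were proposed with earlier results known, so the subunits are described by run without a test. These runs are the labelled groups moved by 1 array, so the labels may not match the arrays, which was not tested. Group names below stand for the labels, and each difference between groups holds only as far as the labels do. Myd88 (8.62 to 9.64) and Ticam1, the gene of Trif (5.80 to 5.93), were not lower on all septic TLR-deficient arrays than on all untreated ones (8.87 to 9.75 and 5.76 to 6.57). Which part of either gene is missing was not given in the sources used here, so these values do not check the labels.

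Promoter sequence is shown first because many chain genes are known to be switched on by the same factors, NRF1, GABP (an ETS factor) and YY1. Whether these factors had a part in the values below was not tested. RefSeq windows of GRCm38.p6, from 250 bases before to 50 after the start site, were found for 67 of the 83 genes (72 windows), and were searched on both strands for GCGCATGC (NRF1), CCGGAAG (ETS) and AAGATGGC (YY1). The stretches below show some ATP synthase subunits with more than 1 match. For the core subunit Ndufs3, 1 of the 2 ETS matches in its window is shown. All run 5′ to 3′ on the gene's strand, with the matches in capitals. Ndufa11, Cox6a1, Cox8a, Sdhb, Uqcr11 and Uqcrc1 also had more than 1 match and are not printed. Atp5k and Atp5l each have a further ETS match after the start site, outside the stretch. In Atp5g2 and Atp5k the NRF1 letters read the same on both strands, so the capitals there are overlapping matches on both strands of 1 site.
Atp5g2 (chr15:102671065-102671104, minus strand, c subunit of the ATP synthase rotor): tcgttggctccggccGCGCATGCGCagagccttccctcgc
Atp5k (chr5:108434425-108434464, minus strand, subunit e of ATP synthase): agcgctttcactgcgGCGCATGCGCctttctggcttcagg
Atp5j (chr16:84835015-84835079, minus strand, coupling factor 6; YY1 then ETS letters): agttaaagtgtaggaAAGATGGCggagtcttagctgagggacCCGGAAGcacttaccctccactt
Atp5l (chr9:44920932-44920992, minus strand, subunit g; NRF1 then ETS letters): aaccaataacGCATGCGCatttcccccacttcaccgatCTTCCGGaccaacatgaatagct
Ndufs3 (chr2:90904726-90904763, minus strand, core subunit of complex I; ETS letters): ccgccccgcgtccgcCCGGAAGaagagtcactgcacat

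NRF1 letters stood in 13.9% of the subunits' windows against 3.5% of all windows of protein-coding genes, ETS letters in 23.6% against 11.6%, and YY1 letters in 13.9% against 3.1%. Any of the 3 stood in 43.1% against 16.7%. These are matches of letters, not shown binding sites. Subunits with and without them are compared after the group values below.

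Most subunits gave strong signals in the spleen. The median of their mean log2 values was 8.09, and 62 of 83 lay in the top 25% of all genes by mean signal (means from 7.22). The medians were 7.66 for complex I, 8.24 for complex II, 8.84 for complex III, 8.03 for complex IV and 9.55 for complex V. All 4 complex II genes, 16 of 17 of complex V, 26 of 36 of complex I, 10 of 17 of complex IV and 6 of 9 of complex III were in that top group. The 8 isoforms known mainly from other tissues or conditions (Cox4i2, Cox6a2, Cox6b2, Cox7a1, Cox7b2, Cox8b, Cox8c and Ndufa4l2) were not in it, and their means ran from 3.02 to 5.71. No detection values came with the signals, so none of these 8 can be called present or absent. The range of a subunit over the 11 arrays without M10 had a median of 0.86, against 0.75 over all genes. Cox8a (0.37) and Ndufb5 (0.42) varied least, and Atp5mpl (1.75), Atp5l (1.58), Ndufa1 (1.55) and Cox6b1 (1.52) varied most.

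**Figure D1:**
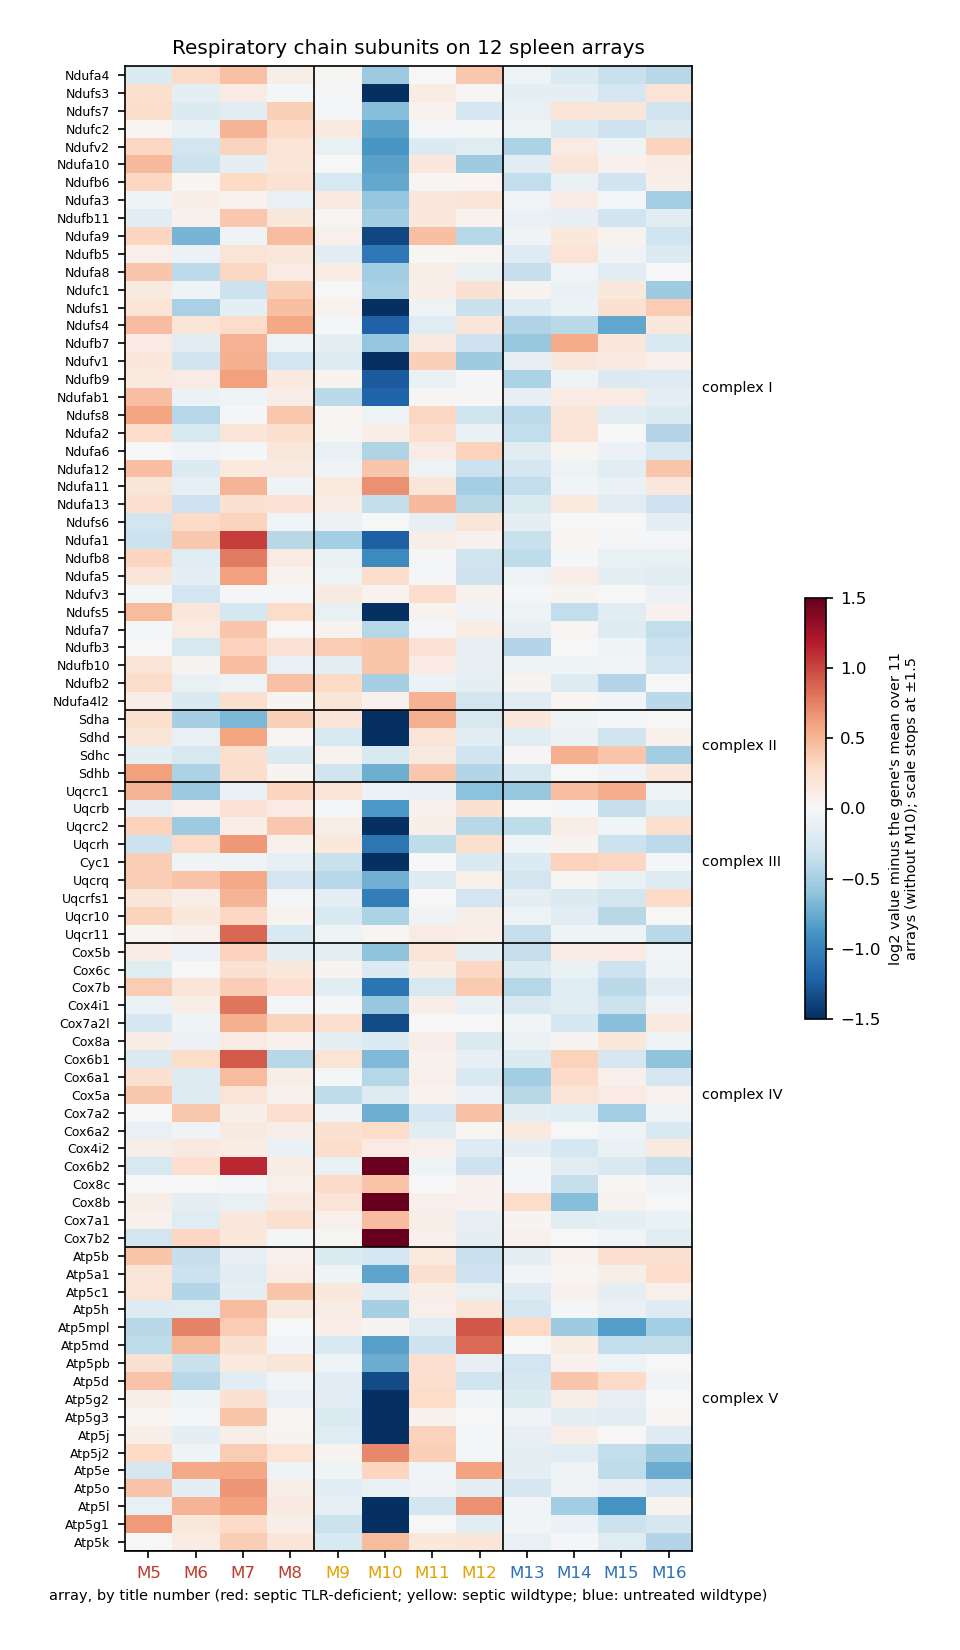
Each row is 1 of the 83 subunits and each column 1 array, with colour for the log2 deviation from the gene's own 11-array mean (M10 not in the mean) (red higher, blue lower; the colour scale stops at its ends) and column labels coloured by group. M7 is red in most rows, M13, M15 and M16 are mostly pale blue, and M10 is dark blue except in the tissue isoforms of complex IV and a few other genes.

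Each subunit's value was next expressed as its deviation from its own mean over the 11 arrays without M10, and deviations were averaged over the 83 genes. The subunits were highest on M7 (0.27), M5 (0.13), M8 (0.10) and M11 (0.07), and lowest on M13 (-0.17), M15 (-0.12) and M16 (-0.12). M14 (-0.01), M9 (-0.04), M12 (-0.05) and M6 (-0.06) lay between. By label, septic TLR-deficient arrays ran from -0.06 to 0.27, septic wildtype arrays without M10 from -0.05 to 0.07, and untreated arrays from -0.17 to -0.01, so that each label overlapped the next. By title run, M5 to M7 with M16 spread from -0.12 to 0.27, M8 to M11 without M10 from -0.04 to 0.10, and M12 to M15 from -0.17 to -0.01. The run that joins M5 to M7 with M16 therefore held both M7, highest of all, and M16, among the lowest. M7 was the highest of the 11 arrays for 29 subunits and M5 for 16, and M16 was the lowest for 21, M15 for 14, M6 for 13 and M13 for 12.

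M7 also held the highest values of the proliferation markers (mean deviation 1.29, 6 genes) and of the erythroid markers (0.78, 6 genes), and the B cell markers were low on M5, M6, M7 and M16 (-0.82 to -1.11, 5 genes). Their part in the subunits' values was not tested.

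On M10 the subunits were low as a group. 50 of 83 (60.2%) lay below all other 11 arrays and 10 (12%) above them, with a median difference of -0.57 from the mean of the other 11. Genes in the top 25% by signal fell further there, with 83.5% below all other arrays and a median of -1.38, while over all genes 35.3% were below, 40.5% were above and the median was 0.08. Ndufs1, a core subunit of complex I with iron-sulphur clusters, was lowest (-2.76), followed by Atp5g2 (-2.31) and Sdhd (-1.97). The tissue isoforms went the other way, with 6 of 8 above all other arrays and Cox8b highest (1.94). Complex II had a median of -1.15 on M10, complex III of -0.86, complex V of -0.74, complex I of -0.56 and complex IV, which holds 7 of the 8 isoforms, of -0.20.

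**Figure D2:**
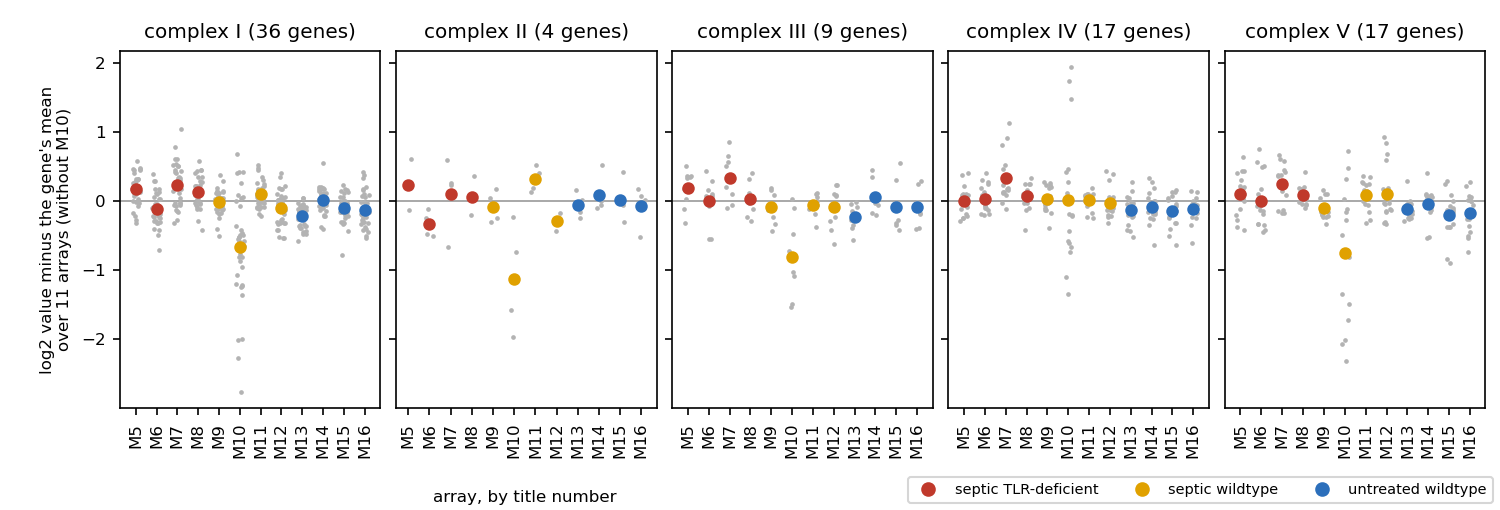
Mean deviation of each complex on each array (coloured points, by group) over its single subunits (grey points), as log2 deviations from the gene's own 11-array mean. Complex IV is highest on M7 (0.33) and below 0 on M12 to M16, and M10 is below 0 for complexes I (-0.66), II (-1.13), III (-0.80) and V (-0.75).

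The complexes did not share 1 profile. Complex I stood at 0.18, -0.11, 0.24 and 0.14 on M5 to M8, at -0.02, 0.10 and -0.11 on M9, M11 and M12, and at -0.21, 0.01, -0.10 and -0.12 on M13 to M16. Complex II, with 4 genes, ran widest, from -0.34 on M6 to 0.32 on M11, and its 3 labels overlapped fully. Complex III was highest on M7 (0.34) and M5 (0.19) and lowest on M13 (-0.23). Complex IV was the only complex of the 5 whose untreated arrays (-0.15 to -0.08) all lay below all septic ones (-0.02 to 0.33, M10 left out). This held after a further quantile normalization (-0.20 to -0.12 against -0.05 to 0.40), but with each array centred on its median M16 (0.00) reached the septic range (-0.04 to 0.40). The separation also leans on the low-signal tissue isoforms, of which Cox4i2 (5.17), Cox8b (3.46) and Cox8c (4.43) were lowest on untreated M14. Outside the isoforms, Cox5a, Cox5b, Cox6a1, Cox6b1 and Cox8a read higher on M14 than on septic M9 and the other complex IV genes lower. In the mean of these genes M14 no longer lay below M9. Complex V reached 0.25 on M7 and was lowest on M15 (-0.20) and M16 (-0.17).

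Core and accessory subunits moved apart on several arrays. On M6 the 20 core subunits averaged -0.28 with 2 of 20 above their own means, while the 55 accessory subunits averaged 0.01 with 26 of 55 above. M12 showed the same split, with core subunits at -0.27 (1 of 20 above) and accessory subunits at 0.04 (29 of 55 above). On M15 and M16 the order was turned: core subunits averaged 0.04 and 0.06, and accessory subunits -0.19 and -0.18 with 9 and 10 of 55 above. M5 and M7 were high for both kinds (0.27 and 0.12 for core, 0.10 and 0.32 for accessory). The split on M6 and M12 was also there after a further quantile normalization (core -0.20 and -0.20, accessory 0.09 and 0.10), but on M15 and M16 the core subunits then fell to -0.07 and -0.03, so their sign there depends on the scaling.

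Enzymes of the citric acid cycle and pyruvate dehydrogenase, which feed the chain with electrons, were low on the same arrays as the core subunits, at -0.45 on M6 (1 of 16 above their own means) and -0.34 on M12 (0 of 16). Cytosolic ribosomal proteins were high there (0.17, 42 of 60, and 0.22, 48 of 60) and low on M15 (-0.30, 5 of 60). Genes in the top 25% by signal stood at -0.09 on M6, -0.06 on M12 and 0.12 on M15. The part that RNA quality or cell content had in these profiles was not tested.

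**Figure D3:**
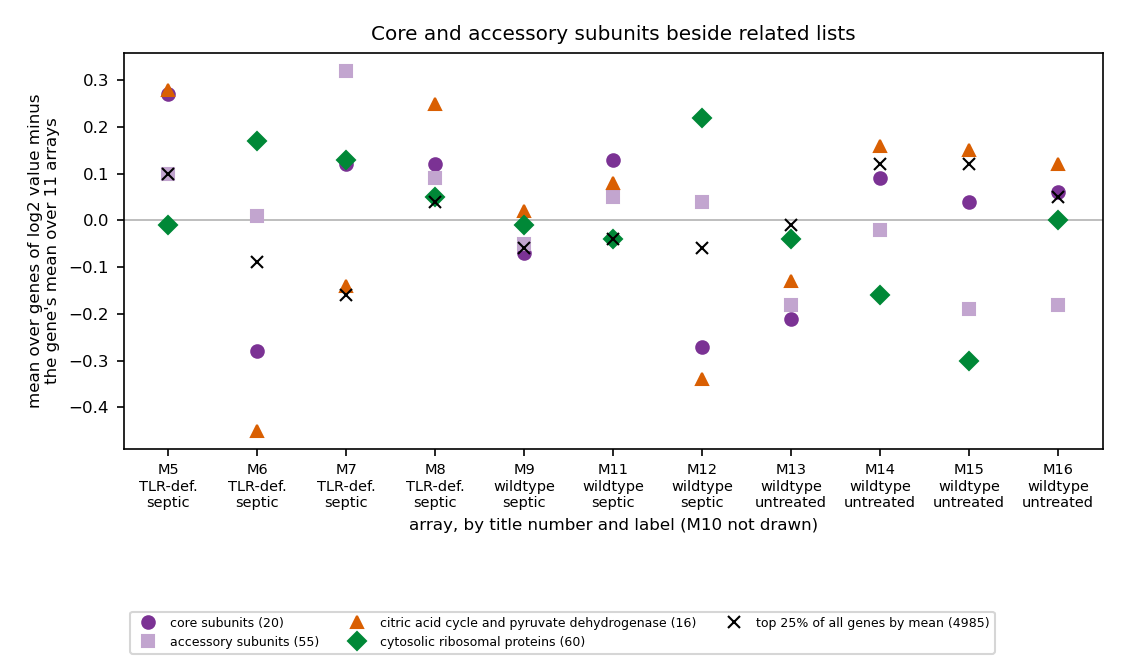
Mean deviation on 11 arrays (M10 not drawn) for core and accessory subunits, the citric acid cycle with pyruvate dehydrogenase, cytosolic ribosomal proteins and all genes in the top 25% by signal, in log2 units around each gene's own mean. Core subunits and citric acid cycle enzymes are both low on M6 (-0.28 and -0.45) and M12 (-0.27 and -0.34), and accessory subunits and ribosomal proteins are both low on M15 (-0.19 and -0.30).

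What peritonitis changed in normal mice is the question of septic against untreated wildtype. For the subunits the median difference was 0.01 on the log2 scale, 42 of 83 were above 0, and the median was 0.07 over all genes and -0.45 over the top 25%. Above 0 were 50.6% of the subunits, 55.1% of all genes and 10.2% of the top 25%. Without M10 these shares were 73.5%, 55.3% and 32.6%. With the tissue isoforms left out, the subunits' median was -0.05 (34 of 75 above 0). Complexes differed, from -0.27 for complex II (0 of 4 above 0) and -0.18 for complex III (1 of 9) to 0.07 for complex IV (12 of 17). Those 12 include all tissue isoforms of complex IV. Of its other genes, Cox4i1, Cox6b1, Cox6c, Cox7a2 and Cox7b were above 0, and Cox5a, Cox5b, Cox6a1, Cox7a2l and Cox8a below. Core subunits had a median of -0.27 (3 of 20 above 0), accessory subunits of 0.03 (31 of 55), and the tissue isoforms of 0.28 (8 of 8). None of the 83 passed an adjusted p of 0.05, nor did any of the 19938 genes (0%), by limma with Benjamini-Hochberg adjustment. At an unadjusted p under 0.05, 2 subunits were higher (Atp5j2 and Ndufb3; 2.89% of all genes) and 0 lower (5.92% of all genes). The 4 arrays of each group did not overlap for Atp5j2 and Ndufv3, both higher (3.68% of all genes), and for 0 lower subunits (2.74%).

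Values moved when M10 was left out. The median difference was then 0.10 with 61 of 83 above 0, core subunits stood at -0.07 (7 of 20 above 0), accessory subunits at 0.18 (46 of 55), complex II at -0.02, complex III at -0.04 and the top 25% of genes at -0.11. Atp5j2, Cox6c and Ndufa4 were higher at an unadjusted p under 0.05 (2.49% of all genes), and 0 subunits were lower (2.96%). A further quantile normalization of all 12 arrays turned core subunits to 0.14, complex II to 0.16 and complex III to 0.19, and took all subunits to 0.30.

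What the deficiency changed under peritonitis is the question of TLR-deficient against wildtype mice, both septic. Subunits were higher in the TLR-deficient group by a median of 0.23 (70 of 83 above 0), less than the 0.36 of the top 25% of genes, with -0.06 over all genes. Above 0 were 84.3% of the subunits, 85.8% of the top 25% and 43.9% of all genes. The medians were 0.43 for complex III (9 of 9 above 0), 0.25 for complex II (3 of 4), 0.23 for complex I (33 of 36), 0.20 for complex V (15 of 17) and 0.16 for complex IV (10 of 17). None passed the adjusted threshold, nor did any gene (0%). At an unadjusted p under 0.05, 9 subunits were higher (4.42% of all genes): Atp5g1, Cox7b, Ndufb6, Ndufb8, Ndufb9, Ndufs4, Uqcr10, Uqcrfs1 and Uqcrq. Of the lower ones, 0 passed it (2.22% of all genes). Groups did not overlap for Atp5g1, Ndufb6 and Ndufb9, higher (2.05% of all genes), and for Ndufv3, lower (1.76%).

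Without M10 the median difference was 0.13 (63 of 83 above 0; top 25% of genes 0.03), and the complexes stood at 0.22 (III), 0.08 (II), 0.13 (I), 0.04 (V) and 0.08 (IV). Above 0 were then 75.9% of the subunits, 54.3% of the top 25% and 48% of all genes. In that fit 3 subunits were higher at an unadjusted p under 0.05 (Atp5g1, Atp5o and Uqcrq; 3.38% of all genes) and 1 was lower (Ndufv3; 2.82%). After a further quantile normalization of all 12 arrays the median was -0.02, with complex III at 0.13 and the other 4 complexes between -0.09 and -0.02. Of the 83 subunits, 0 had an unadjusted p under 0.05 in either direction without septic TLR-deficient replicate 1 (3.04% of all genes) and 1 without its replicate 3 (3.59%). When a septic wildtype array was left out, the count ran from 4 without replicate 2 (6.20% of all genes) to 13 without replicate 3 (10.4%).

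Septic TLR-deficient and untreated mice differ both in genotype and in the operation. By Xist and Eif2s3y the untreated arrays M13 to M15 also differ in sex from the septic TLR-deficient ones. This comparison shares its arrays with the comparisons above, so the 3 sets of values are not independent. Subunits were higher in the septic TLR-deficient group by a median of 0.21, with 73 of 83 above 0, while all genes stood at 0.01 and the top 25% at -0.11. Above 0 were 88% of the subunits, 51.9% of all genes and 31.1% of the top 25%. Accessory subunits were above 0 in 53 of 55 cases (median 0.26) and core subunits in 12 of 20 (0.09). All 17 complex IV genes (0.16), 33 of 36 of complex I (0.22), 7 of 9 of complex III (0.27), 14 of 17 of complex V (0.20) and 2 of 4 of complex II (-0.01) were above 0. Among the 5 complexes the sign turned under another scaling for complex II only (0.08 after further quantile normalization, 0.01 after centring each array on its median). None of the 83 passed the adjusted threshold, nor did any gene (0%). At an unadjusted p under 0.05, 5 subunits were higher (Atp5j2, Atp5o, Cox7b, Ndufs4 and Uqcr10; 1.17% of all genes) and 0 lower (0.707%). Groups did not overlap for 8 subunits, all higher (Atp5g1, Atp5j2, Atp5k, Cox7a2, Cox7b, Ndufb9, Ndufs4 and Uqcr10; 2.40% of all genes), and for 0 lower (0.998%).

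M10 is in neither of these groups but enters the shared estimate of the spread. The SE and p given below for single genes in this comparison include M10. With the spread estimated without it, 18 subunits were higher at an unadjusted p under 0.05 (3.25% of all genes) and 0 lower (2.90%), still with none past the adjusted threshold. By limma, the unadjusted p then moved from 0.209 to 0.00521 for Atp5g1 and from 0.0375 to 0.00166 for Cox7b (adjusted p 0.766 for both). For Atp5mpl it hardly moved (0.0961 and 0.0973). Against the 5 subunits of the 12-array fit (1.88% of all genes in either direction), the count was 0 without untreated replicate 3 (0.968%) and 1 without septic TLR-deficient replicate 3 (0.732%). Proliferation markers were higher in the same group in 6 of 6 cases (median 0.82), with mean deviations of 0.28 to 1.29 on its arrays and -0.53 to -0.03 on untreated ones. Erythroid markers were higher in 6 of 6 (median 0.79), at 0.21 to 0.78 against -0.91 to -0.03. Other marker lists differed too. Pancreatic acinar markers had the largest median, -2.17 (0 of 5 above 0), and stood at -1.36 against septic wildtype (0 of 5). Between septic TLR-deficient and untreated spleens, B cell markers stood at -0.50 (0 of 5), T cell at -0.41 (1 of 5) and stroma at -0.28 (1 of 5). Red pulp macrophage markers stood at -0.18 (3 of 6), plasma cell at 0.04 (3 of 5) and neutrophil at 0.06 (5 of 8). Muscle (8 of 10) and adipocyte markers (4 of 5) stood at 0.19. The part of these lists in the subunits' difference was not tested.

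**Figure D4:**
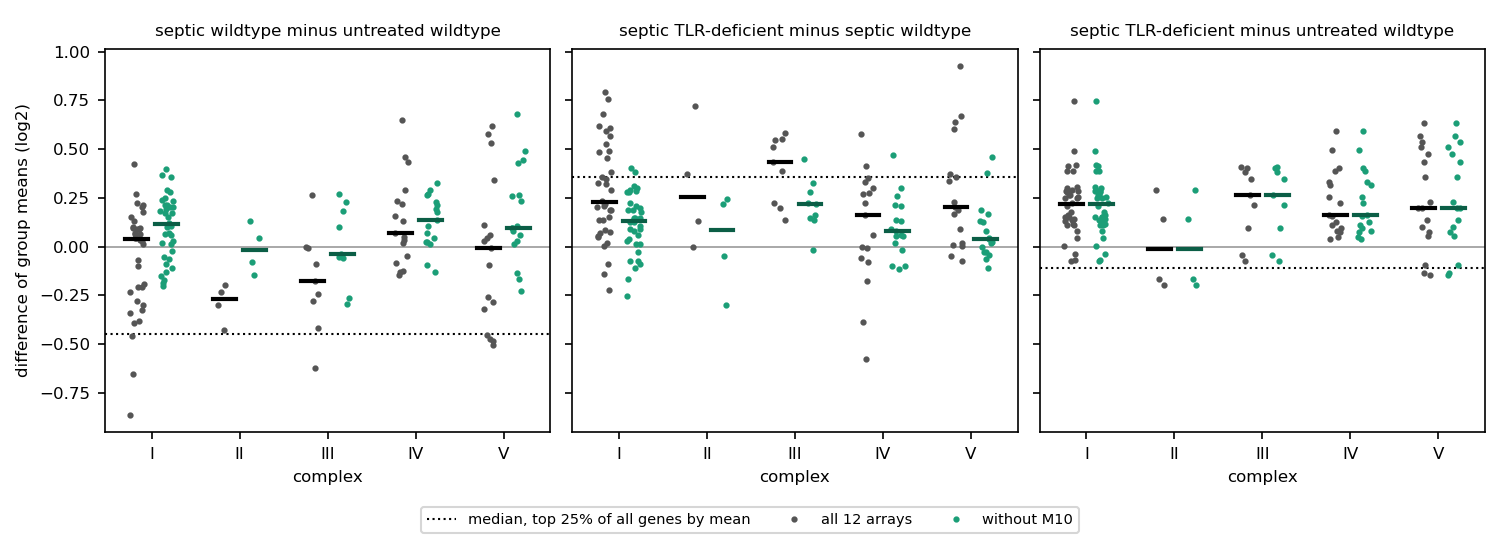
Difference of group means (log2) for every subunit by complex in the 3 comparisons, with all 12 arrays (grey) and without M10 (green); bars are medians over the subunits and the dotted line is the median of the top 25% of genes on 12 arrays. Leaving out M10 pulls the grey tails of the first 2 panels towards 0 and leaves the points of the third in place.

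Subunits with and without motif letters were set side by side in the last comparison, with no test. The median difference was 0.23 for the 10 subunits with NRF1 letters and 0.23 for the 57 without, 0.28 (17 genes) and 0.18 (50 genes) for ETS letters, and 0.14 (10 genes) and 0.25 (57 genes) for YY1 letters. With any of the 3 it was 0.21 (31 genes), and without them 0.24 (36 genes).

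Among the core subunits of complex I, Ndufs1 lay furthest below its other arrays on M10, a septic wildtype array (-2.76 from the mean of the other 11). It read 8.63, 7.93, 8.29 and 8.87 on septic TLR-deficient arrays, 8.47, 5.66, 8.34 and 8.09 on septic wildtype arrays, and 8.23, 8.33, 8.65 and 8.80 on untreated arrays. The 5.66 is M10, and the other 11 arrays overlapped across groups. The difference between septic and untreated wildtype was -0.86 (SE 0.50, n = 4 per group, unadjusted p = 0.108, adjusted p = 0.439 by limma), and -0.20 without M10. Ndufv1, which binds the NADH-oxidising flavin, behaved alike: it read 7.86, 6.05, 8.40 and 7.52 on septic wildtype arrays and 7.92, 8.22, 8.18 and 8.13 on untreated ones. Its difference was -0.66 (SE 0.39), and -0.19 without M10. Ndufs3, Ndufs7, Ndufs8 and Ndufv2, the other core subunits measured, differed between septic TLR-deficient and untreated spleens by 0.13, 0.08, 0.28 and 0.16, with unadjusted p from 0.254 to 0.734.

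Ndufs4, an accessory subunit whose loss is known to impair complex I, had the largest difference of all subunits between septic TLR-deficient and untreated spleens. It read 8.64, 8.35, 8.45 and 8.75 on septic TLR-deficient arrays, 8.16, 6.96, 7.99 and 8.35 on septic wildtype arrays, and 7.72, 7.77, 7.39 and 8.33 on untreated arrays. All septic TLR-deficient values lay above all untreated ones, though M6 (8.35) and M16 (8.33) nearly met. The difference was 0.75 (SE 0.29, n = 4 per group, unadjusted p = 0.0232, adjusted p = 1 by limma). Against septic wildtype it was 0.68 (SE 0.29), and 0.38 without M10.

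Ndufb9, an accessory subunit of the membrane arm, read 7.93, 7.91, 8.40 and 7.94 on septic TLR-deficient arrays, 7.83, 6.54, 7.69 and 7.76 on septic wildtype arrays, and 7.31, 7.73, 7.58 and 7.60 on untreated arrays. The septic TLR-deficient group lay above both others on every array. Its differences were 0.59 (SE 0.27) against septic wildtype, 0.29 without M10, and 0.49 (SE 0.27) against untreated spleens. Ndufb6, its neighbour in that arm, read 9.11, 8.83, 9.09 and 9.01, then 8.55, 8.03, 8.83 and 8.82, and then 8.43, 8.69, 8.50 and 8.89 in the same order of groups. M6 (8.83) and M11 (8.83) met to the second decimal, and M16 (8.89) lay inside the septic TLR-deficient range. Ndufv3, a small subunit of the NADH-binding part, was lower on septic TLR-deficient than on septic wildtype arrays: it read 6.81, 6.54, 6.80 and 6.80, then 6.97, 6.88, 7.10 and 6.90, and then 6.80, 6.87, 6.83 and 6.74. All its septic wildtype values lay above all others, with differences of -0.22 (SE 0.15) for septic TLR-deficient minus septic wildtype and 0.15 (SE 0.15) for septic minus untreated wildtype.

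Ndufs5 read 7.47, 7.17, 6.73 and 7.27 on septic TLR-deficient arrays and 6.89, 4.72, 7.05 and 6.95 on septic wildtype arrays, the 4.72 being M10. Its difference of 0.76 (SE 0.42) fell to 0.20 without that array. Another probe set that names Ndufs5 together with a second gene was left out.

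Complex II, the succinate dehydrogenase that also works in the citric acid cycle, is read from 4 genes here. Its flavin subunit Sdha read 9.96, 9.22, 9.05 and 10.08 on septic TLR-deficient arrays, 9.90, 8.15, 10.25 and 9.48 on septic wildtype arrays, and 9.88, 9.66, 9.70 and 9.73 on untreated arrays. Septic TLR-deficient arrays thus fell into a high pair (M5, M8) and a low pair (M6, M7) around the narrow untreated range. The difference between these groups was -0.17 (SE 0.38), and it became 0.01 without M7. Sdhc, a membrane anchor, had the lowest difference of all subunits there, -0.20 (SE 0.24): it read 7.88, 7.77, 8.25 and 7.81 on septic TLR-deficient arrays and 8.03, 8.54, 8.43 and 7.49 on untreated ones, with overlap. Sdhb and Sdhd differed by 0.14 (SE 0.27) and 0.29 (SE 0.38).

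In complex III, Uqcr10, a small accessory subunit, read 7.38, 7.21, 7.36 and 7.10 on septic TLR-deficient arrays, 6.82, 6.57, 6.99 and 7.14 on septic wildtype arrays, and 6.97, 6.88, 6.63 and 7.04 on untreated arrays. Septic TLR-deficient values all exceeded untreated ones, by 0.38 in the mean (SE 0.18, unadjusted p = 0.0490, adjusted p = 1 by limma), and overlapped septic wildtype at M8 and M12. Cytochrome c1, the core subunit Cyc1 that passes electrons to cytochrome c, read 9.33, 8.89, 8.91 and 8.84, then 8.63, 7.47, 8.95 and 8.73, and then 8.75, 9.31, 9.27 and 8.94. Its septic wildtype arrays were lower than untreated ones by 0.62 in the mean with M10 (difference -0.62, SE 0.29, unadjusted p = 0.0506) and by less without it (-0.30), and M11 overlapped the untreated range in both cases. Uqcrq, a small subunit near the quinone site, read 7.80, 7.86, 8.0 and 7.14, then 7.0, 6.71, 7.24 and 7.51, and then 7.15, 7.44, 7.33 and 7.24. M8 lay among the wildtype values while M5 to M7 lay above all of them. The Rieske iron-sulphur protein Uqcrfs1 and the core proteins Uqcrc1 and Uqcrc2 differed between septic TLR-deficient and septic wildtype spleens by 0.55, 0.20 and 0.51 with M10, and by 0.33, 0.22 and 0.15 without it.

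In complex IV, all 17 genes were above 0 between septic TLR-deficient and untreated spleens, from 0.04 for Cox8a to 0.59 for Cox7b. They include its low-signal tissue isoforms, which cannot be called present or absent. Of all genes, 51.9% were above 0 there. Cox7b, a broadly made accessory subunit, read 9.37, 9.17, 9.36 and 9.24 on septic TLR-deficient arrays, 8.81, 7.89, 8.75 and 9.38 on septic wildtype arrays, and 8.56, 8.80, 8.58 and 8.82 on untreated arrays. The septic TLR-deficient group lay in a narrow band above all untreated arrays, and M12 (9.38) lay with it. The difference was 0.59 (SE 0.26, n = 4 per group, unadjusted p = 0.0375, adjusted p = 1 by limma). Cox7a2 read 8.0, 8.42, 8.10 and 8.26, then 7.96, 7.28, 7.76 and 8.45, and then 7.88, 7.83, 7.5 and 7.95. It too separated the first group from the last, with a difference of 0.40 (SE 0.23), and M12 was again the highest array. Cox4i1, Cox5a and Cox5b, counted here with the core, differed by 0.39, 0.13 and 0.09, and Cox6a1 and Cox6b1 by 0.25 and 0.32.

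Most isoforms of other tissues were higher on M10 than on every other array (6 of 8, not Cox4i2 or Ndufa4l2). A rise there was not confined to them: 40.5% of all genes lay above the other 11 arrays on M10, whose values had the narrow SD of 1.21. Cox8b, the form of heart and skeletal muscle, read 4.19, 3.97, 3.99 and 4.23 on septic TLR-deficient arrays, 4.29, 6.04, 4.18 and 4.16 on septic wildtype arrays, and 4.37, 3.46, 4.15 and 4.10 on untreated arrays. Cox7b2, a form of the testis, stayed between 2.59 and 3.18 except on M10 (4.61). Cox6b2, also of the testis, was high on M10 (6.56) and on M7 (6.20) and lay between 4.73 and 5.32 elsewhere. Skeletal and heart muscle markers stood at 0.60 on M10 and between -0.23 and 0.13 on the other 11 arrays (10 genes), and the part they had in these values was not tested. Without M10, the differences of the 8 isoforms between septic and untreated wildtype ran from 0.02 for Cox7b2 and Cox6b2 to 0.29 for Ndufa4l2.

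In ATP synthase, several subunits of the membrane part had groups that did not overlap. Atp5g1, 1 of the genes for the c subunit of the proton-driven rotor, read 8.14, 7.67, 7.79 and 7.58 on septic TLR-deficient arrays, 7.17, 5.48, 7.5 and 7.34 on septic wildtype arrays, and 7.46, 7.41, 7.17 and 7.24 on untreated arrays. The septic TLR-deficient group lay above both others without overlap. The difference was 0.93 against septic wildtype (SE 0.36, unadjusted p = 0.0229, adjusted p = 0.590 by limma), 0.46 without M10, and 0.47 against untreated spleens (SE 0.36). Atp5g2 and Atp5g3, which encode the same mature protein, read 9.64 to 9.97 and 9.67 to 10.11 on septic TLR-deficient arrays and 9.54 to 9.83 and 9.53 to 9.71 on untreated arrays, with overlap in both.

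Atp5j2, subunit f, was the subunit that separated both septic groups from untreated spleens. It read 9.30, 8.93, 9.38 and 9.21 on septic TLR-deficient arrays, 9.04, 9.72, 9.36 and 8.98 on septic wildtype arrays, and 8.85, 8.84, 8.63 and 8.47 on untreated arrays. All 8 septic arrays lay above all 4 untreated ones. The differences were 0.58 for septic wildtype (SE 0.20, unadjusted p = 0.0128, adjusted p = 0.439 by limma; 0.43 without M10) and 0.51 for septic TLR-deficient (SE 0.20, unadjusted p = 0.0252, adjusted p = 1 by limma), and the septic groups differed by -0.07 (SE 0.20). Atp5k, subunit e, whose promoter stretch is printed above, read 6.94, 7.04, 7.30 and 7.11, then 6.70, 7.41, 7.09 and 7.12, and then 6.82, 6.90, 6.75 and 6.49. Its septic TLR-deficient arrays exceeded the untreated ones by 0.36 in the mean (SE 0.19), with M5 (6.94) and M14 (6.90) close together.

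Atp5l (subunit g) and Atp5mpl, a small membrane subunit, varied more than the other subunits over the 11 arrays without M10. Atp5l read 7.64, 8.26, 8.36 and 7.89, then 7.63, 6.04, 7.48 and 8.44, and then 7.71, 7.23, 6.86 and 7.81. Atp5mpl read 9.47, 10.63, 10.26 and 9.87, then 9.98, 9.92, 9.72 and 10.81, and then 10.18, 9.35, 9.05 and 9.37. Both were high on M6, M7 and M12 and low on M15, and every label overlapped the others. Atp5l differed by 0.63 (SE 0.41, unadjusted p = 0.147) between septic TLR-deficient and untreated spleens. Atp5b and Atp5a1, of the catalytic head, differed between septic TLR-deficient and untreated spleens by -0.09 and -0.13. Of the central stalk, Atp5c1 differed by 0.06, Atp5d by -0.15 (SE 0.31) and Atp5e by 0.54 (SE 0.25, unadjusted p = 0.0522, adjusted p = 1 by limma).

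Ndufa4, placed with complex I by its symbol but now counted as a subunit of complex IV, is known to be replaced in inflamed cells by its paralog AA467197 (Nmes1), which has no symbol of the rule. Ndufa4 read 9.79, 10.29, 10.44 and 10.09 on septic TLR-deficient arrays, 10.01, 9.45, 10 and 10.40 on septic wildtype arrays, and 9.92, 9.79, 9.67 and 9.58 on untreated arrays. Its difference between septic TLR-deficient and untreated spleens was 0.41 (SE 0.22, unadjusted p = 0.0822), with overlap at M5. AA467197 read 8.90, 9.31, 7.41 and 4.33, then 4.54, 4.39, 3.97 and 5.31, and then 4.88, 4.82, 5.47 and 9.01. It was thus high on M5, M6, M7 and M16, an untreated array by its label, and between 3.97 and 5.47 on the other 8 arrays. The labelled differences were 2.93 between septic TLR-deficient and septic wildtype (SE 1.05, unadjusted p = 0.0153, adjusted p = 0.590 by limma) and 1.44 against untreated spleens (SE 1.05). On these 4 arrays Ndufa4 spanned 9.58 to 10.44, which covers its whole range on the others but M10.

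**Figure D5:**
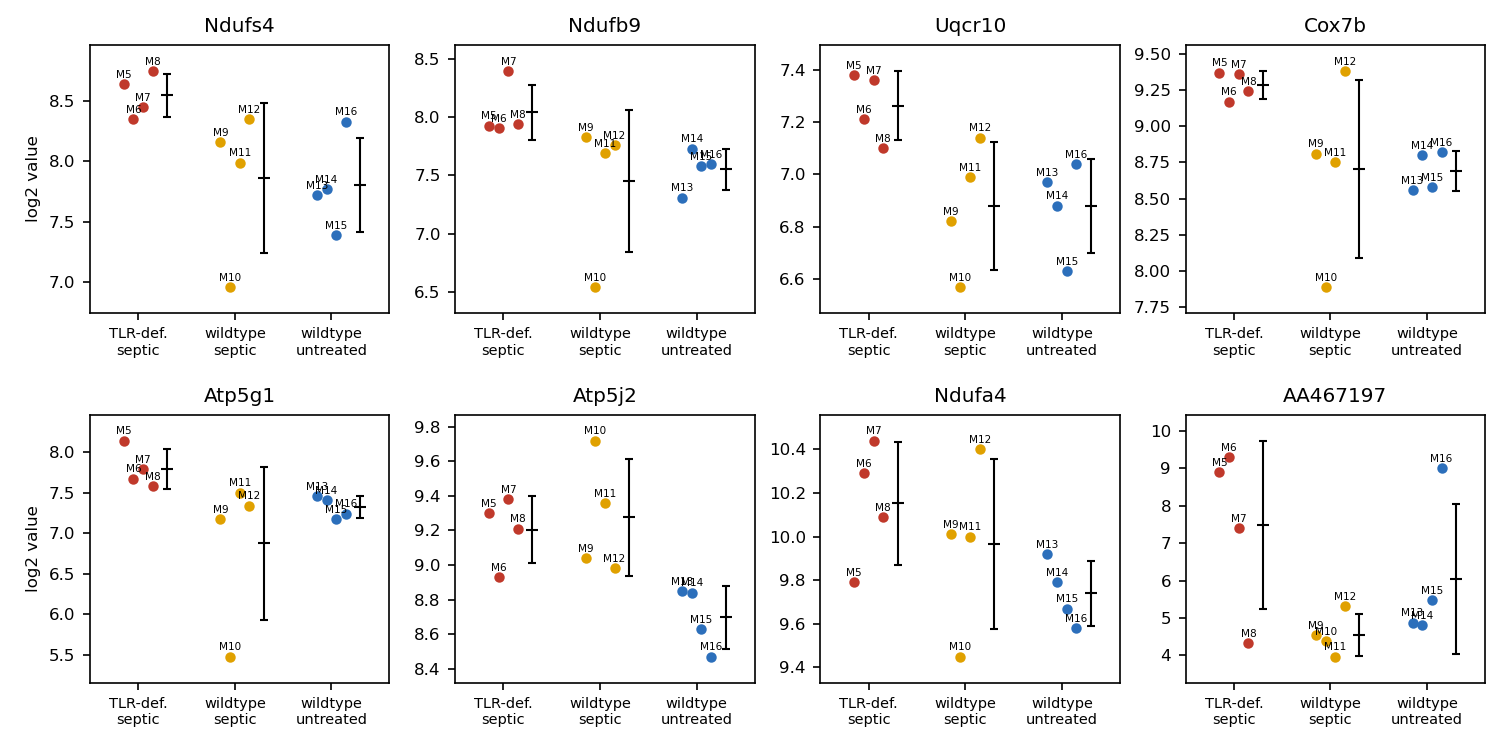
Log2 values on every array (points, with title numbers) by label for 6 subunits with separated groups, for Ndufa4 and for its paralog AA467197; the bar beside each group is mean ± SD (n = 4). M10 lies far below the other septic wildtype points of Ndufs4, Ndufb9, Cox7b and Atp5g1, and AA467197 is high on M5, M6, M7 and M16.

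Lists of genes around the chain were set beside the subunits, whose median in the last comparison was 0.21 (73 of 83 above 0). Between septic TLR-deficient and untreated spleens the median was 0.02 for 44 assembly factors (25 above 0), 0.07 for 77 mitochondrial ribosomal proteins (53 above 0), -0.12 for 16 citric acid cycle and pyruvate dehydrogenase genes (4 above 0), -0.17 for 16 glycolysis genes (4 above 0) and 0.20 for 60 cytosolic ribosomal proteins (53 above 0). For 20 electron carriers and entry enzymes it was -0.00 (10 above 0), for 14 regulators of mitochondrial biogenesis -0.14 (3 above 0), and for 16 partners and inhibitors of the chain 0.07 (12 above 0). No test of the difference between lists was made. Atpif1, the inhibitor that binds ATP synthase when the proton gradient fails, read 9.71, 10.18, 10.67 and 10.32 on septic TLR-deficient arrays, 9.81, 10.88, 9.97 and 10.12 on septic wildtype arrays, and 9.71, 9.54, 9.38 and 9.07 on untreated arrays. To 2 decimals, septic arrays were at or above the highest untreated one, with differences of 0.80 (SE 0.27, unadjusted p = 0.0107, adjusted p = 1 by limma) and 0.77 (SE 0.27, unadjusted p = 0.0132, adjusted p = 0.439 by limma). Among regulators, Pprc1, a coactivator of the NRF1 kind of genes, read 7.53, 7.48, 7.12 and 6.68, then 6.59, 5.65, 7.31 and 7.58, and then 7.40, 7.74, 8.14 and 7.58. It was lower in septic than in untreated wildtype spleens by 0.94 in the mean (difference -0.94, SE 0.37, unadjusted p = 0.0237, adjusted p = 0.439 by limma) and by less without M10 (difference -0.56), and M12 overlapped the untreated arrays.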

How the data were processed

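Total RNA from 12 spleens was labelled with Affymetrix kits and hybridised to 1 array each. The values are log2 signals as deposited by the authors, summarised per probe set with RMA in Affymetrix Expression Console per the submitters' processing notes (versions not given in the sources used here). RMA corrects background and normalises arrays to each other, so a shift shared by all genes of an array is removed; M10 nevertheless differs in spread. The table holds 35557 probe sets: 21789 have 1 symbol, 1621 several and 12147 none here. One probe set per gene, the one with the highest mean, left 19938 genes with no filter on low values; 17 of the 83 subunits had a choice of probe sets, and those of Atp5md, Uqcr11 and Atp5pb differed in their deviations by up to 0.60, 0.56 and 0.50 on an array.

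Group means were compared with limma 3.58.1 in R 4.3.3 (lmFit and eBayes, two-sided, all 12 arrays, 1 mean per label, no block), with Benjamini-Hochberg adjustment over all 19938 genes at a threshold of 0.05; the code was tested on simulated data. Where the text says without M10, the same fit ran on 11 arrays. With 4 arrays per group, the number of arrays limits the precision, and SE and p measure the spread between these arrays. The replicate numbers are not stated to pair arrays, and correlations of same-numbered arrays' deviations ran from -0.535 to 0.144. Genes were named by rule: the core subunits, the tissue isoforms and their broad partners, the 3 largest and 3 smallest differences of each comparison, and the highest and lowest mean of each complex; others were named after their values were seen. The subunits, lists and runs were chosen with earlier results of these data known. Promoters came from RefSeq (GRCm38.p6) and were searched in Python 3.11.15. Alternatives were further quantile normalization, centring, filters at the 25th and 50th percentile, the mean of probe sets, 8 arrays only, trended variances, array weights, a replicate block and leaving out each array.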

Additional observations from a re-analysis of the deposited data

Results flagged for a closer look

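In groups of 4 arrays, 147 sets of values (44 named subunits and the mean deviations of the 5 complexes, in 3 labels) were checked for an array whose gap to its nearest neighbour takes up more of the group's range than Dixon's critical value allows, which chance gives in about 5% of groups. 13 sets had such an array, and in 9 of them it was M10, septic wildtype replicate 2. Some of the 44 subunits, Atp5g1 and Ndufs5 among them, were named for their large differences between groups, and the sets share arrays. The 13 therefore cannot be set against the 5%. On M10 Ndufs1 read 5.66 (others of the group 8.09 to 8.47), Ndufs3 7.22 (9.20 to 9.34), Ndufs5 4.72 (6.89 to 7.05), Ndufv2 8.0 (8.66 to 8.76) and Atp5g1 5.48 (7.17 to 7.5), all below the group, and the mean deviation of complex III from the 12-array means was -0.74 (-0.02 to 0.02). Cox6b2 at 6.56 (4.76 to 5.01), Cox7b2 at 4.61 (2.74 to 2.95) and Cox8b at 6.04 (4.16 to 4.29) lay above it.

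The other arrays that stood apart were M8 for Cox4i2 at 5.33 (others of the septic TLR-deficient group 5.52 to 5.56), M5 for Cyc1 at 9.33 (8.84 to 8.91), M6 for Ndufv3 at 6.54 (6.80 to 6.81) and M14 for Cox8c at 4.43 (others of the untreated group 4.73 to 4.79).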

How the results depend on the processing

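Depth does not apply to arrays, and without detection values no subunit's signal can be set against background. The median difference of the subunits between septic and untreated wildtype was 0.30 after further quantile normalization, against 0.01 as deposited, and that between septic TLR-deficient and septic wildtype was -0.0173, against 0.23; the cause was not tested. Leaving out each array moved the 3 medians over -0.09 to 0.10, 0.13 to 0.33 and, for septic TLR-deficient against untreated, 0.14 to 0.28. No gene passed the adjusted threshold under the alternatives listed under processing except 1 with array weights between septic and untreated wildtype. With replicates 1 to 3 of each group without septic wildtype replicate 2, a setting added after seeing the data and with the arrays' likeness known, so that it favours calls, 19, 1002 and 675 genes passed it in the 3 comparisons in that order, and 0, 1 and 2 subunits (Uqcrq, then Cox7b and Ndufs4). In that setting Ndufs1 was 0.0017 and Ndufv1 0.0224 between septic and untreated wildtype, and Ndufs1 was -0.12 and Cox7b2 0.0149 between septic TLR-deficient and septic wildtype. Cox7b2 was also 0.0078 there with array weights and ranged from -0.57 to 0.0539 (without septic wildtype replicate 2) when 1 array was left out, and Sdha ranged from -0.34 to 0.0096 (without septic TLR-deficient replicate 3) between septic TLR-deficient and untreated spleens. With the replicate number as a block the medians stayed at 0.01, 0.23 and 0.21, no subunit passed the adjusted threshold, and 1, 6 and 3 subunits had an unadjusted p under 0.05 (6.71%, 5.05% and 1.54% of all genes), against 2, 9 and 5 without the block (8.81%, 6.65% and 1.88%).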
